A study of Homo sapiens with 17 samples.

Results

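Solute carrier (SLC) genes encode membrane proteins that move amino acids, sugars, ions, metals, vitamins, nucleotides and drugs across the plasma membrane and the membranes of organelles. They were taken here as every gene whose symbol is SLC, a family number, a letter and a member number, with SLC45A3 and hyphenated names left out. A region counted as a member where the deposited tables mark it as overlapping an exon of such a gene, with or without its promoter. That gave 806 regions over 228 SLC genes in 22Rv1, 978 over 233 in LNCaP and 1071 over 244 in HPr1AR. Together these were 2855 of the 326944 regions of the 3 tables, and 273 SLC genes had an exon region in at least 1 line.

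RNA carrying N6-methyladenosine (m6A) was pulled down from total RNA with an m6A antibody, against unspecific IgG as the background, in vehicle-treated wild-type cells of 3 prostate lines. 22Rv1 is a prostate carcinoma line able to grow at castrate androgen levels, with 2 m6A and 3 IgG samples among the labels; whether its table used 2 or 3 m6A samples is unknown. LNCaP cells, which respond to androgen, were derived from a lymph node metastasis of prostate carcinoma, with 3 m6A and 3 IgG samples. HPr1AR is an immortalized non-malignant prostate epithelial line into which the androgen receptor was introduced, also with 3 of each. The cancer lines grew in RPMI-1640 medium with serum and HPr1AR in serum-free keratinocyte medium, so that line and medium cannot be told apart. Each disease state is represented by 1 or 2 lines and HPr1AR alone stands for the non-malignant state.

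m6A is written onto RNA by a methyltransferase complex, mostly at adenosines in a GGAC-like context, in long internal exons, near stop codons and in 3′ untranslated regions, and it affects decay, splicing and translation of the transcript. An antibody pull-down reads it as a stretch of RNA with more reads than the background pull-down. Carriers for amino acids, lactate and zinc have long been studied in prostate epithelium, a tissue known for its high zinc content.

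Each table gives 1 fold and 1 p-value to a region with its samples pooled. Replicate spread is therefore unknown, and every test below measures counting error within a table only. Nearly every region passes the deposited test: 803 of 806 SLC exon regions in 22Rv1, 955 of 978 in LNCaP and 1047 of 1071 in HPr1AR, beside 99.3%, 95.4% and 96.5% of all regions. For this reason fold and p-value were used to rebuild the whole m6A and IgG reads in the window that represents a region, on depths of 3.30 M m6A and 4.82 M IgG reads in 22Rv1, 3.92 and 8.87 M in LNCaP, and 5.13 and 11.7 M in HPr1AR, which come from the fit and were not checked against sequenced reads. The files state no formula for the fold. The one fitted here subtracts the log rate of the background 2 times, and every rebuilt read rests on it. Whole reads met both fold and p-value in 99.8%, 98.5% and 100% of the regions with a p above 0 in 22Rv1, LNCaP and HPr1AR, and in 1.62%, 16.0% and 1.14% after the folds were moved by random amounts, so LNCaP reads are the least certain. A region is called higher or lower where its read ratio, m6A over IgG per depth, differs from 1 by an exact binomial test at an adjusted p of 0.05. Where the deposited p is 0 only the smallest reads that can give it are known, and these values are written as "at least"; so are ratios with no IgG read, which take a floor of 3 reads. The files do not state which pull-down is the numerator; it is taken to be m6A after their names. Coordinates of regions are those of the files: the submitters' processing notes name hg38, but only 9.54%, 10.2% and 10.1% of the SLC regions lay within their gene in RefSeq GRCh38, so the build of these positions was not identified.

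Marker genes went with the line labels. All 9 luminal prostate markers had an exon region in 22Rv1 and in LNCaP, and 5 of 9 in HPr1AR, where KLK3, KLK2, TMPRSS2 and FOLH1 were not listed. Of 8 basal markers, 2 were listed in 22Rv1, 2 in LNCaP and 8 in HPr1AR, and KRT5, KRT14 and TP63 were among those not listed in the cancer lines. Summed IgG reads of the luminal list were 121 CPM (reads per M of depth) in 22Rv1, 235 in LNCaP and 59.0 in HPr1AR, and those of the basal list 0, 14.1 and 364 CPM. A transcript with less RNA and one with less m6A cannot be told apart where a table does not list it, and the part of cell type in the SLC results was not tested.

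Most SLC genes with an exon region had a stretch higher in the m6A pull-down, as did most genes of any kind. The shares in 22Rv1, LNCaP and HPr1AR were 96.1%, 93.1% and 95.5% of SLC genes, beside 89.7%, 89.6% and 91.8% of all genes. Of the SLC exon regions, 509 (63.2%) were higher in the m6A pull-down in 22Rv1, 528 (54.0%) in LNCaP and 603 (56.3%) in HPr1AR. Over all exon regions the share called higher was 51.6% in 22Rv1, 45.0% in LNCaP and 45.6% in HPr1AR. Lower calls numbered 8, 1 and 1 among the SLC regions, against 1.00%, 0.201% and 0.211% of all exon regions. The median log2 read ratio of the SLC regions was 2.49 in 22Rv1, 1.91 in LNCaP and 2.16 in HPr1AR, and that of all exon regions 1.77, 1.48 and 1.44. The SLC medians lay 0.72, 0.44 and 0.73 above these, a description with no test of the list.

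**Figure D1:**
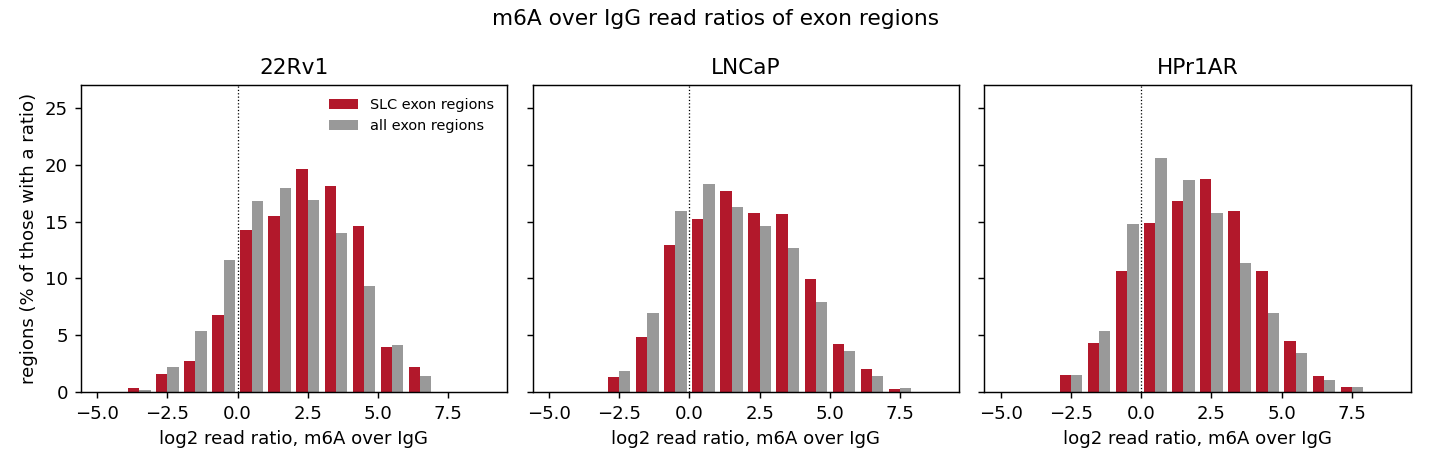
Share of exon regions (y axis, percent of those with a ratio) by log2 read ratio of m6A over IgG (x axis, bins of 1) for SLC genes and for all exon regions in 22Rv1, LNCaP and HPr1AR; the dotted line marks equal reads per depth. The medians of the SLC regions, 2.49, 1.91 and 2.16, lie to the right of those of all exon regions, 1.77, 1.48 and 1.44.

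Most exon regions have a ratio above 1, so the calls were also set against the median ratio of all exon regions of each line, which is called centring below. On that scale 239 SLC regions were higher and 85 lower in 22Rv1, 316 and 109 in LNCaP, and 353 and 101 in HPr1AR. The share higher was then 29.7%, 32.3% and 33.0%, beside 21.9%, 25.2% and 24.2% of all exon regions, and the share lower 10.5%, 11.1% and 9.43%, beside 17.4%, 14.3% and 13.2%. Shares in different lines also depend on how low each table starts. A shared cut of 0.862 CPM was set, the largest over the lines of the 5% quantile of rates among regions with rebuilt reads. At or above it 64.4% of 786 SLC regions were higher in 22Rv1, 71.5% of 646 in LNCaP and 77.6% of 593 in HPr1AR. The shares of all exon regions were 52.3%, 60.3% and 63.1%, which stand in the same order. The representative window is taken to be that with the smallest deposited p, which favours windows with more m6A reads, and ratios may run high for that reason in SLC and other genes alike.

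Counted by gene, 219 of 228 SLC genes (96.1%) had a higher exon region in 22Rv1, 217 of 233 (93.1%) in LNCaP and 233 of 244 (95.5%) in HPr1AR. Over all genes with an exon region the shares were 89.7%, 89.6% and 91.8%. Of the 197 SLC genes listed in all 3 lines, 186 (94.4%) had a higher region in each of them, beside 85.3% of all genes listed in all 3. A gene has a median of 3 exon regions in 22Rv1 and 4 in LNCaP and HPr1AR and needs only 1 to count, so these shares rise with the number of regions.

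Along the SLC genes the higher regions gathered at places that their neighbouring exons mark as ends. Within its table, a region was placed at the 3′ end where other exons of its gene lie only upstream within 10000 bp, at the 5′ end where they lie only downstream, and called internal where they lie on both sides. An exon beside a longer intron thus also counts as an end, here and below, so these places are not always the ends of the gene. In SLC16A10 the leading 3′ end region begins at 111498481 of chromosome 6 in 22Rv1 and at 111543261 in LNCaP. At the 5′ end 75.9% of 108 SLC regions were higher in 22Rv1 (95% Wilson interval 67.1 to 83.0%), 71.1% of 149 in LNCaP (63.4 to 77.8%) and 68.2% of 157 in HPr1AR (60.5 to 74.9%). Internal SLC regions were higher in 47.6% of 347 (42.4 to 52.8%), 37.6% of 442 (33.2 to 42.2%) and 42.0% of 500 (37.8 to 46.4%). At the 3′ end the shares were 78.3% of 258 (72.9 to 82.9%), 67.8% of 292 (62.2 to 72.9%) and 70.0% of 307 (64.7 to 74.9%). In each line the shares of both ends lay above that of internal regions. The intervals take regions as independent, but in 22Rv1 the 258 3′ end regions come from 180 genes and the 347 internal ones from 138. Regions of 1 gene share their transcript, so the intervals may be too narrow and are no test between places.

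Over all exon regions both ends also stood above internal regions, with 64.0%, 34.8% and 69.9% higher at the 5′ end, inside and at the 3′ end in 22Rv1, 59.9%, 29.2% and 64.1% in LNCaP, and 60.5%, 31.1% and 63.8% in HPr1AR. In LNCaP the SLC share was higher at the 5′ end than at the 3′ end and the share of all exon regions was not. The 2 SLC intervals overlap, and with neighbours within 5000 bp the order turned, to 62.8% at the 5′ end and 67.6% at the 3′ end. SLC regions with no neighbouring exon within 10000 bp were higher in 64.9%, 61.5% and 66.4%, against 70.8%, 65.2% and 66.9% of all such regions. Within single SLC genes that had regions of both kinds, the median ratio at the 3′ end was above that of internal regions in 81 of 114 genes in 22Rv1, 102 of 137 in LNCaP and 105 of 151 in HPr1AR (71.1%, 74.5% and 69.5%, beside 75.9%, 74.96% and 72.4% of all genes with both). The 5′ end was above internal regions in 49 of 74, 67 of 92 and 83 of 112 genes (66.2%, 72.8% and 74.1%, beside 68.7%, 70.2% and 69.2%). These shares within a gene lie near those of all genes. End regions are also wider and hold more reads: the median width of SLC regions was 615 bp at the 3′ end and 270 bp inside in 22Rv1, with 33.5 and 15 reads, and the part of width and reads in the calls was not tested.

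**Figure D2:**
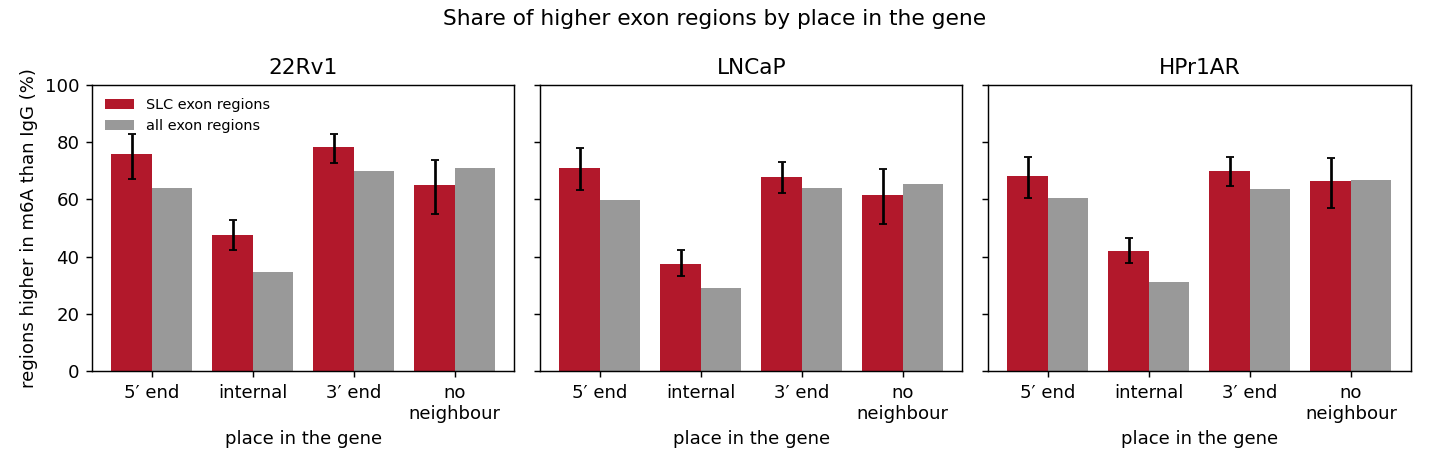
Percent of exon regions higher in m6A than in IgG (y axis, from 0) by place in the gene (x axis) for SLC genes, with 95% Wilson intervals, and for all exon regions, in 22Rv1, LNCaP and HPr1AR. Places follow the neighbouring exons within 10000 bp and are not always the ends of the gene. SLC regions at the 3′ end (78.3, 67.8 and 70.0%) and the 5′ end (75.9, 71.1 and 68.2%) stand above internal ones (47.6, 37.6 and 42.0%).

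Regions that cover both promoter and exon were higher more often than those over exons alone: 71.2% of 236 against 59.8% of 570 in 22Rv1, 68.3% of 281 against 48.2% of 697 in LNCaP, and 74.0% of 300 against 49.4% of 771 in HPr1AR. Over all exon regions the same split gave 63.4% against 47.1%, 60.1% against 39.5% and 63.0% against 39.6%. At the start of the gene, 102 SLC genes had such a region in all 3 lines and in 79 (77.5%) it was higher in all 3, beside 61.5% of all 7459 genes with such a region in each line. The m6A antibody also binds m6Am, the methylated form of an adenosine next to the cap, so the first transcribed bases are of interest here. RefSeq start windows (GRCh38.p14; 250 bases before to 50 after the annotated start) matched 62 of the 79 genes by symbol. The annotated first base was A in 30 of them (48.4%), beside 44.3% of all 27305 windows. It was A in 49.4% of the 83 matched SLC genes with a start region listed in all 3 lines, higher or not. Of the 215 matched SLC genes with any exon region it was A in 49.8%, so the higher ones held no more A than other SLC genes. The motif GGACT stood in the 50 transcribed bases of 3 on the sense strand (4.84%) and of 5 on either strand (8.06%), beside 4.87% and 9.63% of all windows, and the shorter GGAC, which every GGACT also contains, in 10 on the sense strand (16.1%) beside 18.8%. These are letters in a window and not mapped sites.

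The 6 genes below were picked after their values were seen, as all genes with a RefSeq window that were led in all 3 lines by a higher start region touching no other gene's exon. They show what the start of such a transcript looks like. Capitals mark the 50 transcribed bases, 5′ to 3′ in the direction of the gene. The windows lie in GRCh38.p14 at chr4:993355-993654 (minus strand) for SLC26A1, chr19:46788545-46788844 (minus strand) for SLC1A5, chr2:113756593-113756892 (minus strand) for SLC35F5, chr22:23856684-23856983 (plus strand) for SLC2A11, chr4:146521891-146522190 (minus strand) for SLC10A7 and chr1:155135125-155135424 (plus strand) for SLC50A1.
SLC26A1: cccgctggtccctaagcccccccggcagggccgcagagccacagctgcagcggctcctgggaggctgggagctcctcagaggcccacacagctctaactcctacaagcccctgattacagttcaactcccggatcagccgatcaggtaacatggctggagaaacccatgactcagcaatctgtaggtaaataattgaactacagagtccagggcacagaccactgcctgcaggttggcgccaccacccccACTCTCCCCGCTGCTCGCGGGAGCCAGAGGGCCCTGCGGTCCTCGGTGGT
SLC1A5: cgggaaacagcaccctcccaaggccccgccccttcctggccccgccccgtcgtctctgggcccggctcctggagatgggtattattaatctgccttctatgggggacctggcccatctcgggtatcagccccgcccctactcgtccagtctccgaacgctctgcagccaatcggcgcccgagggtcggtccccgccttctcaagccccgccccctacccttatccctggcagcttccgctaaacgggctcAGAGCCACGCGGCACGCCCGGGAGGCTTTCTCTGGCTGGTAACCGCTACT
SLC35F5: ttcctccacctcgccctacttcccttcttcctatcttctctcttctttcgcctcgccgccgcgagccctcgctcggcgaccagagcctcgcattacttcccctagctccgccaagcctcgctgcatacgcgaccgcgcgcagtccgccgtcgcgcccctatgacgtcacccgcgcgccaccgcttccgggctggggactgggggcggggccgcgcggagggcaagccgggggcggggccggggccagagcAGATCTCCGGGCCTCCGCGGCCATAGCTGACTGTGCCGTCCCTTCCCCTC
SLC2A11: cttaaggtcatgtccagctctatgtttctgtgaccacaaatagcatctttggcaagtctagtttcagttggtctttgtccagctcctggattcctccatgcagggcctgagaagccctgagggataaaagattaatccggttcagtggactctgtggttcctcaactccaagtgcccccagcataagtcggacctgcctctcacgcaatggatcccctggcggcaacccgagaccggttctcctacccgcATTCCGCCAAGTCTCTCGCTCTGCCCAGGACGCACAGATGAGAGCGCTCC
SLC10A7: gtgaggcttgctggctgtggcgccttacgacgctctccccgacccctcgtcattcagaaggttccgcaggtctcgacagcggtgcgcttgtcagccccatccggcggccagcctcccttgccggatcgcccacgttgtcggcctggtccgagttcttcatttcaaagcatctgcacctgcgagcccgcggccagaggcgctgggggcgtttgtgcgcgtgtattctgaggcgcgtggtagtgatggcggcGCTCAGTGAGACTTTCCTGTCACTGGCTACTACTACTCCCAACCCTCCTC
SLC50A1: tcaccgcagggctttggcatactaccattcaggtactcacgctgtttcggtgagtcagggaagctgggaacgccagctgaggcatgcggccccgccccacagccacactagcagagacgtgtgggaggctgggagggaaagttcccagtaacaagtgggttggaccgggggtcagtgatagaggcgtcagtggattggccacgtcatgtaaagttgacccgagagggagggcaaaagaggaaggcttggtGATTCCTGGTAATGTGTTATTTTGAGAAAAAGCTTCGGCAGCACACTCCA

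The first transcribed base is A in 4 of the 6 windows and G in those of SLC10A7 and SLC50A1, and among the 6 only that of SLC2A11 holds GGAC on the sense strand of those 50 bases. SLC26A1, an anion exchanger for sulfate and oxalate, held at least 91 m6A reads against 2 IgG reads in its start region of 22Rv1, at least 63 against 9 in LNCaP and at least 59 against 1 in HPr1AR. The log2 read ratios were at least 6.06, 3.98 and 7.07. SLC1A5, the neutral amino acid exchanger that brings glutamine into the cell, had 75 against 16 in 22Rv1, at least 66 against 9 in LNCaP and at least 58 against 24 in HPr1AR, with log2 ratios of 2.78 (95% exact interval 1.98 to 3.65), at least 4.05 and at least 2.46. SLC35F5 had 20 m6A reads against 0 in 22Rv1, 25 against 0 in LNCaP and 19 against 1 in HPr1AR. SLC2A11, a member of the glucose transporter family, had 20 against 1, 44 against 2 and 15 against 0. SLC10A7, of the bile acid carrier family, had 38 against 9 in 22Rv1, 29 against 14 in LNCaP and 59 against 18 in HPr1AR. SLC50A1, a sugar transporter, had 51 against 23 in 22Rv1, 88 against 77 in LNCaP and 53 against 16 in HPr1AR, with log2 ratios of 1.70 and 1.37 in the cancer lines that lie below the medians of all exon regions there. The m6A reads exceeded the IgG reads in every line for all 6 genes, which were chosen for their higher calls, so this excess is no separate result.

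Among the SLC genes with the smallest adjusted p across all 3 lines were SLC1A4, SLC27A5, SLC45A4, SLC16A8, SLC9A3, SLC35B4, SLC25A30, SLC26A2 and SLC52A3. SLC1A4, the alanine, serine and cysteine exchanger, had its leading region at the 3′ end of the gene, beginning at position 65248031 of chromosome 2 in every table, with 84 m6A reads against 4 in 22Rv1, at least 61 against 2 in LNCaP and at least 64 against 3 in HPr1AR. Its log2 read ratio was 4.94 in 22Rv1 (3.53 to 6.85; adjusted p = 9.55e-26), at least 6.11 in LNCaP (adjusted p = 4.20e-27) and at least 5.61 in HPr1AR (adjusted p = 2.90e-27), all by the exact binomial test. SLC52A3, a riboflavin transporter, had 71 against 3 in 22Rv1, 51 against 1 in LNCaP and at least 61 against 7 in HPr1AR, with every one of its 10 exon regions higher. SLC35B4, a nucleotide sugar transporter, had 69 against 2, at least 62 against 5 and at least 64 against 6 at its 3′ end. SLC26A2, a sulfate transporter needed for cartilage, had 70 against 0 in 22Rv1, at least 68 against 9 in LNCaP and at least 61 against 7 in HPr1AR. SLC9A3, a sodium and proton exchanger of epithelia, had internal leading regions of 83 against 5, at least 63 against 4 and at least 61 against 6. No order among these genes can be read, since most of their LNCaP and HPr1AR ratios are lower bounds.

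**Figure D3:**
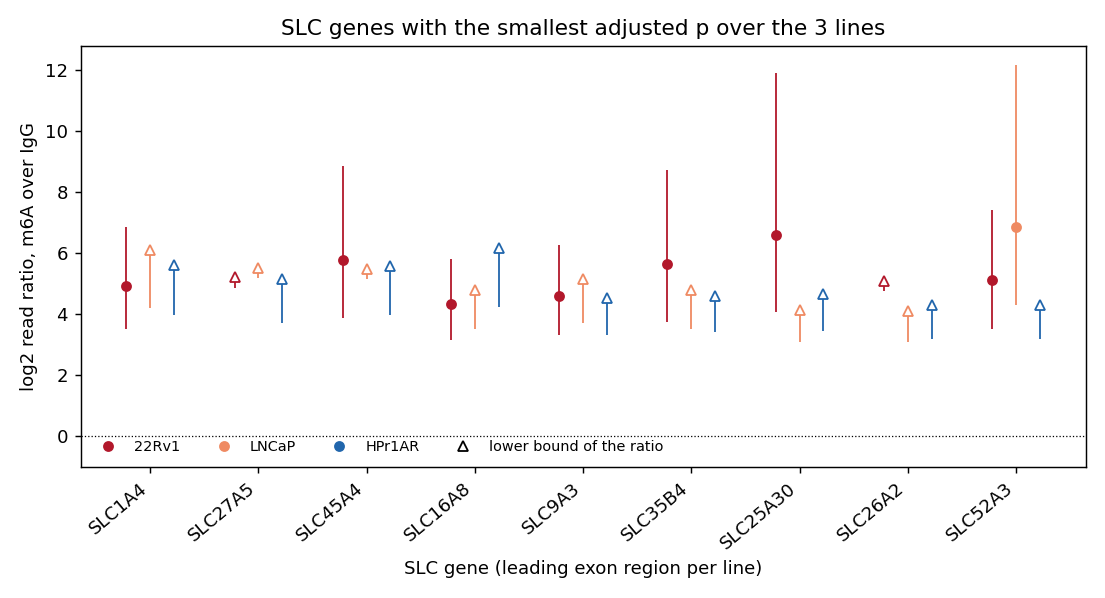
Log2 read ratio of m6A over IgG (y axis) in the leading exon region of 9 SLC genes (x axis) in 22Rv1, LNCaP and HPr1AR; filled points have rebuilt reads with 95% exact intervals, and open triangles are lower bounds with their lower limit. The ratios of SLC1A4 are 4.94 in 22Rv1 and at least 6.11 and 5.61 in LNCaP and HPr1AR, and all points and limits shown lie above 0.

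Within a line the leaders differed. In 22Rv1 the genes with the smallest adjusted p-values included SLC26A1, SLC10A3, SLC27A5, SLC66A2 and SLC1A4. SLC10A3, a member of the bile acid carrier family, had at least 89 m6A reads against 3 IgG reads in 22Rv1, at least 64 against 9 in LNCaP and at least 58 against 21 in HPr1AR, over the same stretch of chromosome X from 153715641 to 153717440 in all 3 tables. SLC27A5, a bile acid and fatty acid CoA ligase of the liver, had 76 against 0 in 22Rv1, a log2 ratio of at least 5.21, in a region that also overlaps an exon of ZNF446. In LNCaP the leaders were SLC39A11, SLC16A1, SLC38A10, SLC27A5, SLC45A4 and SLC25A23. In HPr1AR they included SLC39A1, SLC26A10, SLC16A9, SLC30A4 and SLC25A17. Each of these 5 HPr1AR leaders also had a higher region in 22Rv1 and in LNCaP, so being a leader of a line says nothing of a difference between lines.

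The remaining leaders of a line or of all 3 lines had few IgG reads in most tables. SLC45A4 had 75 m6A reads against 2 in 22Rv1, at least 60 against 0 in LNCaP and at least 63 against 3 in HPr1AR. SLC25A30, a mitochondrial carrier, had 66 against 1, at least 63 against 8 and at least 66 against 6 at its 3′ end. SLC66A2 had 82 against 2 in 22Rv1, at least 63 against 10 in LNCaP and at least 61 against 18 in HPr1AR. These genes were led by the 3′ end in most lines or, for SLC66A2, by a region with no neighbouring exon.

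SLC38A10 had 75 against 17 reads in 22Rv1, at least 67 against 2 in LNCaP and at least 60 against 4 in HPr1AR, and 10 of its 12 HPr1AR regions were higher. SLC25A23, a carrier of ATP-Mg and phosphate in mitochondria, had 58 against 15, 106 against 27 and 34 against 8 in the same internal stretch, with log2 ratios of 2.50 (1.66 to 3.42), 3.15 (2.53 to 3.82) and 3.28 (2.14 to 4.6), its LNCaP reads being 1 of 6 possible pairs. Its 22Rv1 call was lost after centring (adjusted p = 0.179, exact binomial test). SLC16A9, of the monocarboxylate family, had 30 against 1, at least 62 against 4 and at least 65 against 2. The intervals of these ratios overlapped between lines for SLC25A23, and those of SLC16A9 are bounds in LNCaP and HPr1AR.

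SLC30A4, a zinc exporter, had 25 against 0 in 22Rv1, at least 65 against 47 in LNCaP in a region that also overlaps an exon of HMGN2P46, and at least 65 against 2 in HPr1AR at the 3′ end. Its LNCaP bound no longer passed after centring (adjusted p = 0.701, exact binomial test), which leaves that call unresolved. SLC25A17, a carrier of the peroxisome membrane, had 56 against 7, at least 64 against 10 and at least 64 against 2 at its 3′ end. SLC26A10 had 60 against 5, at least 70 against 6 and at least 71 against 4 in regions shared with B4GALNT1. For SLC30A4 the leading stretch differed between lines, so its values are not of 1 place.

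The 197 genes listed in all 3 lines ranged from every region higher to none. In 33 of them every exon region was higher in every line. This was not counted over all genes, so whether it is unusual is unknown, and genes with few regions meet it more easily. Among the 144 genes with 9 or more regions over the 3 lines there were 8 such genes: SLC34A3, a renal phosphate transporter, SLC35E4, SLC52A3, SLC25A28 and SLC25A37, the mitochondrial iron carriers known as mitoferrins, SLC26A1, SLC49A3 and SLC9A3. At the other end, among the genes with a higher region in each line, at most 25% of the regions were higher in SLC30A5 (4 of 24), SLC37A3 (3 of 17), SLC30A7 (4 of 21), SLC25A3 (3 of 15), SLC7A11 (7 of 35), SLC25A13 (4 of 19) and SLC39A6 (6 of 24). SLC30A5, a zinc transporter of the secretory pathway, was led by its 3′ end region in every line, with 49 m6A reads against 6 in 22Rv1, at least 65 against 15 in LNCaP and at least 62 against 9 in HPr1AR.

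The classes of carriers were counted by gene and by region. They follow the SLC family number, so SLC25A17 of the peroxisome counts among the mitochondrial carriers. Over all genes listed in all 3 lines, 85.3% had a higher region in each. Of the mitochondrial carriers listed in all 3 lines, 35 of 36 had a higher region in each line, as did 16 of 16 zinc transporters, 12 of 12 lipid, choline and acetyl-CoA carriers, 22 of 24 amino acid transporters, 18 of 19 nucleotide sugar transporters and 15 of 16 sugar transporters. The smaller shares were 10 of 12 monocarboxylate and dicarboxylate carriers, 5 of 6 organic ion and drug carriers, 15 of 17 bicarbonate, anion and proton exchangers and 8 of 9 cation-chloride and calcium exchangers, and in the other 6 classes, of 3 to 7 genes each, every gene was higher. By region, zinc transporters had 52.0% of 75 regions higher in 22Rv1, 43.3% of 97 in LNCaP and 47.1% of 87 in HPr1AR. These shares lie near the 51.6%, 45.0% and 45.6% of all exon regions. Peptide and vesicular carriers had 81.8% of 11, 31.25% of 16 and 44.4% of 18. Monocarboxylate and dicarboxylate carriers had 89.7% of 29, 73.0% of 37 and 73.5% of 49. Amino acid transporters, with 135, 150 and 172 regions, had 56.3%, 54.0% and 52.3%. Regions of 1 gene share their transcript, so no test was made between classes.

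**Figure D4:**
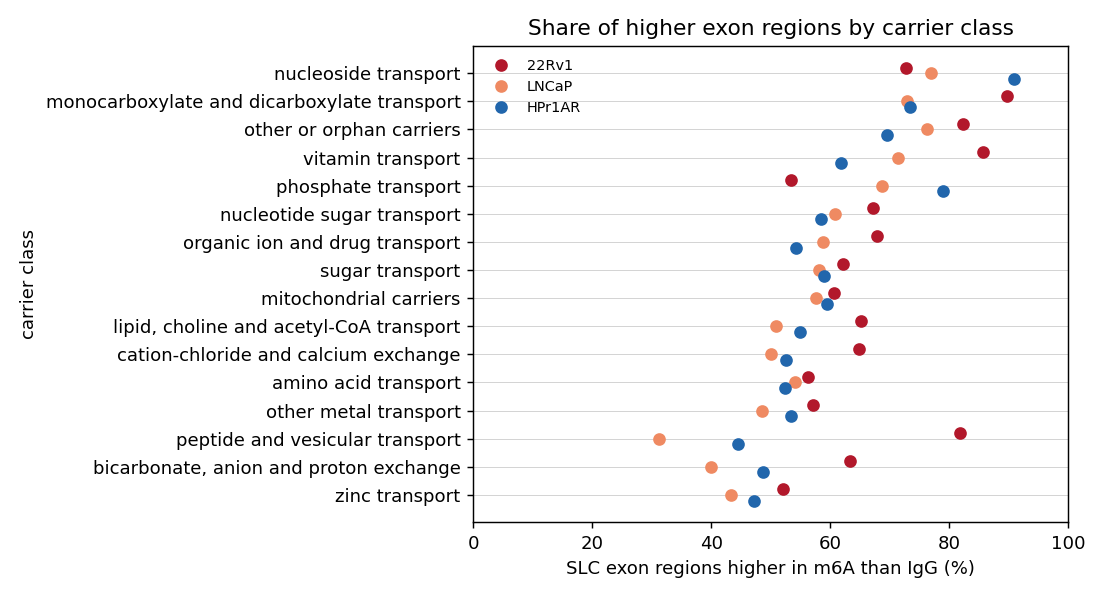
Percent of SLC exon regions higher in m6A than in IgG (x axis, from 0) in 16 carrier classes (y axis) for 22Rv1, LNCaP and HPr1AR. Monocarboxylate and dicarboxylate carriers lie at 89.7, 73.0 and 73.5% and zinc transporters at 52.0, 43.3 and 47.1%; the classes hold between 11 and 172 regions in a line, so small classes are the least certain.

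Among amino acid transporters, SLC7A5 and SLC3A2 form the light and heavy chains of the leucine exchanger LAT1. SLC7A5 had a 3′ end region with at least 49 m6A reads against 30 IgG reads in 22Rv1 and at least 66 against 3 in LNCaP, and an internal region with at least 55 against 10 in HPr1AR. The log2 ratios were at least 1.26, 5.64 and 3.65, of which the 22Rv1 bound comes from a region with a p above 0 that no pair of reads met and rests on the fitted formula. SLC3A2 had 67 against 25 in 22Rv1, a log2 ratio of 1.97 (1.29 to 2.69), and at least 64 against 37 in LNCaP, at least 1.97, both at the 3′ end. In HPr1AR its leading region, 55 against 28, also covers the snoRNA host gene SNHG1. After centring no SLC3A2 call remained, with log2 ratios of 0.20, 0.49 and 0.73 in 22Rv1, LNCaP and HPr1AR (adjusted p = 0.772, 0.201 and 0.0868, exact binomial test). The LNCaP value is a lower bound, so that call is unresolved. SLC43A1, another leucine transporter known from prostate tissue, had 45 against 3 in 22Rv1, at least 61 against 23 in LNCaP and 15 against 0 in HPr1AR, all at the 3′ end.

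SLC7A11, the light chain of the cystine and glutamate exchanger, had 2 of 12 regions higher and 3 lower in 22Rv1, 2 of 11 higher in LNCaP and 3 of 12 in HPr1AR. Its leading region was at the 3′ end in 22Rv1 (29 against 11 reads) and LNCaP (45 against 16), where it also overlaps an exon of SLC7A11-AS1, and at the 5′ end in HPr1AR (at least 61 against 31). After centring the SLC7A11 call was lost in 22Rv1 (0.18, adjusted p = 0.935) and kept in LNCaP (1.19, adjusted p = 0.0169) by the exact binomial test. The HPr1AR bound no longer passed (at least 0.73, adjusted p = 0.0598, exact binomial test), which leaves that call unresolved. The sodium-coupled glutamine transporters SLC38A1 and SLC38A2 had 5 of 11 and 2 of 4 regions higher in 22Rv1, 5 of 11 and 1 of 4 in LNCaP, and 5 of 11 and 2 of 3 in HPr1AR. The leading SLC38A1 region held 70 against 5 reads in 22Rv1, 64 against 16 in LNCaP and 61 against 10 in HPr1AR, with log2 ratios of 4.35 (3.06 to 6.02), 3.18 (2.37 to 4.07) and 3.80 (2.82 to 4.93). The arginine transporter SLC7A2 had 44 against 3 reads in 22Rv1 and at least 65 against 7 in LNCaP, while its single region in HPr1AR held 0 against 1, too few for a ratio. SLC38A9, a lysosomal arginine sensor, had no higher region: its single LNCaP region held 0 m6A reads against 7, the leading one of 6 in HPr1AR held 1 against 11, and it was not listed in 22Rv1. Relative to the median of all exon regions both of these pass as lower (adjusted p = 0.0148 and 0.00934 by the exact binomial test).

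Of the sugar and lactate carriers, SLC2A1, the basal glucose transporter, was led by regions over promoter and exon with 66 m6A reads against 7 in 22Rv1, 79 against 56 in LNCaP and at least 64 against 71 in HPr1AR. Its log2 ratios were 3.78 (2.66 to 5.15), 1.67 (1.16 to 2.19) and at least 1.04. The 22Rv1 region is wider and overlaps an exon of SLC2A1-AS1, so the 3 values are not of the same stretch, and the LNCaP reads could be rebuilt in 10 ways. After centring the HPr1AR bound turns to -0.40 and the LNCaP call was lost (adjusted p = 0.622, exact binomial test). SLC16A1, which carries lactate and pyruvate, had promoter and exon regions with 43 against 0 in 22Rv1, at least 65 against 1 in LNCaP and at least 65 against 6 in HPr1AR, with log2 ratios of at least 4.39, 7.20 and 4.63. SLC16A8, a lactate carrier best known from retinal pigment epithelium, had 83 against 6 in 22Rv1, at least 62 against 5 in LNCaP and at least 63 against 2 in HPr1AR.

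Zinc leaves cells through SLC30A1 and enters through SLC39 carriers. SLC30A1 had both of its regions higher in every line, the leading one at the 3′ end with 70 m6A reads against 6 IgG reads in 22Rv1, at least 63 against 5 in LNCaP and at least 61 against 8 in HPr1AR. Its log2 ratios were 4.09 (2.90 to 5.59), at least 4.83 and at least 4.12. SLC39A11 had 59 against 3 in 22Rv1, 91 against 4 in LNCaP and 59 against 7 in HPr1AR at its 3′ end, with log2 ratios of 4.84, 5.69 and 4.27 whose intervals overlap. SLC39A1, a zinc importer of prostate epithelium, had 37 against 2 in 22Rv1, 39 against 1 in LNCaP, where an exon of CREB3L4 overlaps, and at least 71 against 2 in HPr1AR. SLC39A6 had 2 of 8 regions higher in each line, the same internal stretch leading from position 33706181 of chromosome 18 in 22Rv1 with 63 against 28, at least 66 against 66 and at least 61 against 26 reads. Relative to the median of all exon regions its value was -0.052 in 22Rv1 and at least -0.30 in LNCaP, a bound that leaves the sign open.

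Among ion carriers, SLC12A2, the sodium, potassium and chloride cotransporter, was led by a promoter and exon region with 44 m6A reads against 4 in 22Rv1, at least 63 against 10 in LNCaP and at least 57 against 12 in HPr1AR, a stretch that also overlaps an exon of LINC01184. The further 7 and 8 regions of SLC12A2 in LNCaP and HPr1AR that were not higher have no counterpart in 22Rv1, where 2 of 2 listed regions were higher. SLC20A1, a phosphate transporter, had 86 against 5 in 22Rv1 and at least 66 against 12 in LNCaP in an internal exon and at least 60 against 2 in HPr1AR in its 5′ end region, which also overlaps an exon of FLJ42351. SLC25A37, which carries iron into mitochondria, had 3 of 3 regions higher in every line, with 70 against 7, at least 64 against 14 and at least 64 against 9 reads.

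Lower calls were few. SLC25A3, the mitochondrial phosphate carrier, had a lower internal region in every line on chromosome 12, beginning at 98993431 in 22Rv1, 98993411 in LNCaP and 98993421 in HPr1AR, with 13 m6A reads against 48 IgG reads in 22Rv1, 17 against 74 in LNCaP and 22 against 88 in HPr1AR. The log2 read ratios were -1.34 (-2.35 to -0.43; adjusted p = 0.00391), -0.94 (-1.80 to -0.17; adjusted p = 0.0309) and -0.81 (-1.55 to -0.12; adjusted p = 0.0417) by the exact binomial test. The LNCaP reads here could be rebuilt in 7 ways. This stretch also overlaps an exon of the small nucleolar RNA gene SNORA53, and which of the 2 RNAs gave the IgG reads cannot be told apart. A second internal SLC25A3 region was lower in 22Rv1 with 21 against 55 reads, while the 3′ end region of the same gene was higher in all 3 lines, with 56 against 48, 72 against 75 and at least 63 against 74 reads. Relative to the median of all exon regions those 3′ end ratios were -1.0 in 22Rv1, -0.36 in LNCaP and at least -0.48 in HPr1AR. The LNCaP reads could be rebuilt in 22 ways. The remaining lower calls were all in 22Rv1, in regions of SLC25A38, SLC38A1 and SLC44A1 with 1 m6A read against 12 to 14 IgG reads and in 3 SLC7A11 regions with 0 against 9 or 10. Each of these 4 genes also had 2 or more higher regions in 22Rv1.

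Among the 273 SLC genes, 9 had no higher region in any line, beside 990 of all 16288 genes. The 9 were SLC12A5, SLC17A5, SLC17A7, SLC36A4, SLC38A9, SLC3A1, SLC4A5, SLC66A3 and SLC6A13. SLC3A1 and SLC4A5 were listed in all 3 lines. SLC4A5, a sodium bicarbonate cotransporter, had 0 of 6 regions higher in 22Rv1, 0 of 5 in LNCaP and 0 of 5 in HPr1AR. SLC3A1, the heavy chain of the cystine transporter of kidney, had 4 against 5, 5 against 11 and 15 against 19 reads, with intervals that include equal rates, in regions shared with PREPL. Most SLC4A5 regions overlap exons of MTHFD2 or DCTN1. At such counts a ratio of moderate size was not detectable.

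The other 9 genes that were listed in all 3 lines but not higher in each were SLC16A10, SLC16A4, SLC22A18, SLC24A5, SLC25A1, SLC2A13, SLC35B1, SLC4A11 and SLC7A2. SLC25A1, the mitochondrial citrate carrier, had 37 m6A reads against 34 IgG reads in 22Rv1, 35 against 50 in LNCaP and 34 against 36 in HPr1AR, with log2 ratios of 0.67, 0.66 and 1.11, of which only that of HPr1AR passed. SLC24A5, a cation exchanger known from pigment cells, had 6 against 7, 7 against 7 and 55 against 14. SLC35B1 had 1 of its 14 regions higher, in HPr1AR. For most of the others the line without a call had few reads, as in SLC16A10 with 3 against 0 in HPr1AR and SLC2A13 with 4 against 2 in LNCaP.

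Of the 273 SLC genes some were listed by exon in 1 line alone, 13 in 22Rv1, 9 in LNCaP and 16 in HPr1AR. Of all 16288 genes with an exon region these numbers were 449, 518 and 1225. In 22Rv1 the 4 with most m6A reads were SLC47A1, a drug and cation exporter (51 against 1 IgG read), SLC17A4 (46 against 0), SLC15A1, the intestinal peptide transporter (24 against 0), and SLC45A1 (17 against 2). In LNCaP they were SLC22A10 (33 against 1), SLC4A4, a sodium bicarbonate cotransporter (25 against 15), SLC26A4, the anion exchanger pendrin (21 against 0), and SLC45A2, known from pigment cells (14 against 0). In HPr1AR they were SLC16A5 (at least 61 against 8), SLC2A9, a urate transporter (at least 61 against 4), SLC44A3 (34 against 1) and SLC2A2, the glucose transporter of liver and islets (27 against 1). These 12 were chosen by their m6A reads, so their calls are a description. The calls of SLC45A1 and SLC4A4 were lost after centring (adjusted p = 0.149 and 0.563, exact binomial test).

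Regions of SLC genes that overlap no exon were also listed. Of these, 186 of 274 (67.9%) were higher in 22Rv1, 218 of 610 (35.7%) in LNCaP and 312 of 813 (38.4%) in HPr1AR, beside 58.6%, 27.5% and 27.5% of all intron regions without an exon.

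Overlaps between lines were close to those of all exon regions. Of the 22Rv1 SLC regions 88.0% overlapped a region of HPr1AR and 88.2% one of LNCaP, beside 88.3% and 87.4% of all exon regions. Of the LNCaP regions 81.8% overlapped one of HPr1AR and 65.8% one of 22Rv1, beside 84.9% and 72.1%. Of the HPr1AR regions 61.9% overlapped one of 22Rv1 and 76.7% one of LNCaP, beside 62.2% and 72.0%. Read ratios could be compared in 463 overlapping SLC pairs between 22Rv1 and HPr1AR, 547 between LNCaP and HPr1AR and 463 between 22Rv1 and LNCaP, all those in which both regions have rebuilt reads, of 615, 735 and 611. Across these pairs Spearman's rho of the 2 ratios was 0.705, 0.733 and 0.747, beside 0.747, 0.743 and 0.769 over all exon pairs, a description over regions that are not independent, and that of the IgG reads of the same pairs was 0.567, 0.551 and 0.643. The median difference was -0.03, -0.13 and 0.01 log2 units.

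An exact conditional test of each difference, adjusted over all overlapping exon regions of a pair of lines, called 9 SLC pairs in 7 genes. Between 22Rv1 and HPr1AR 3 SLC pairs were higher and 1 lower in 22Rv1 (0.648% and 0.216%, against 0.242% and 0.389% of all exon pairs). Between LNCaP and HPr1AR 2 were higher and 2 lower in LNCaP (0.366% each, against 0.375% and 0.267%). Between 22Rv1 and LNCaP 1 was higher in 22Rv1 and 0 lower (0.216% and 0%, against 0.133% and 0.352%). The comparisons of 22Rv1 and of LNCaP with HPr1AR share the HPr1AR table. The reads are those of 1 representative window per region, whose place within the region is not known here. In the called pairs the overlap, as a share of the wider region, ran from 0.243 at SLC30A7 to 1 at SLC38A2. A called difference may therefore compare windows at different places.

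SLC12A4, a potassium and chloride cotransporter that regulates cell volume, had the larger ratio in both cancer lines. In overlapping internal regions of chromosome 16, at 67982661 to 67986240 in 22Rv1, its representative windows held 58 m6A reads against 2 IgG reads in 22Rv1. They held 49 against 2 in LNCaP and 18 against 16 in HPr1AR. The log2 ratio was 4.05 above HPr1AR in 22Rv1 (95% interval 1.71 to 7.28; adjusted p = 0.00878) and 4.43 above HPr1AR in LNCaP (2.08 to 7.67; adjusted p = 0.00155) by the exact test. The neighbouring stretch had 68 against 3 in 22Rv1 and 46 against 26 in HPr1AR, a difference of 3.04 (1.19 to 5.46; adjusted p = 0.0252) by the exact test that no longer passed relative to the median of all exon regions (adjusted p = 0.0825). IgG reads were fewer in both cancer lines at these stretches, and the part of RNA level was not tested. All regions of SLC12A4 together summed to 208 m6A and 17 IgG reads in 22Rv1, 143 and 15 in LNCaP, and at least 203 and 107 in HPr1AR.

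SLC4A2, the anion exchanger AE2, had 35 m6A reads against 0 in 22Rv1 and 18 against 26 in HPr1AR in a 3′ end region that also covers exons of FASTK, a difference of at least 3.43 (lower limit 2.78; adjusted p = 2.63e-04, exact test). SLC25A5, the adenine nucleotide translocase ANT2, had 29 against 2 in LNCaP and 23 against 28 in HPr1AR at its 5′ end, where SLC25A5-AS1 overlaps, a difference of 4.13 (1.86 to 7.34; adjusted p = 0.00264, exact test). SLC38A2 had 47 against 8 in 22Rv1 and 36 against 53 in LNCaP in the same 5′ end region from 46762901 to 46766560 on chromosome 12, a difference of 2.48 (1.16 to 3.92; adjusted p = 0.0135, exact test), with LNCaP reads that could be rebuilt in 7 ways.

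Ratios below those of HPr1AR were called at SLC30A7 in 22Rv1 and at SLC25A11 in LNCaP. SLC30A7, a zinc transporter of the Golgi, had 8 against 6 in 22Rv1 and 26 against 0 in HPr1AR, at most -3.34 (upper limit -2.19; adjusted p = 0.0260, exact test), where the HPr1AR region is wider and also covers an exon of EXTL2. The overlap is a share of 0.243 of the wider region, and the pair is not tested where 50% is required. SLC25A11, the mitochondrial oxoglutarate and malate carrier, had 34 against 52 in LNCaP and 46 against 17 in HPr1AR, a difference of -2.06 (-3.18 to -0.97; adjusted p = 0.0138, exact test), in a stretch shared with RNF167 and with LNCaP reads that could be rebuilt in 5 ways. The cancer line's own log2 ratio was 0.96 and 0.56 at these genes and was not called in either of them.

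**Figure D5:**
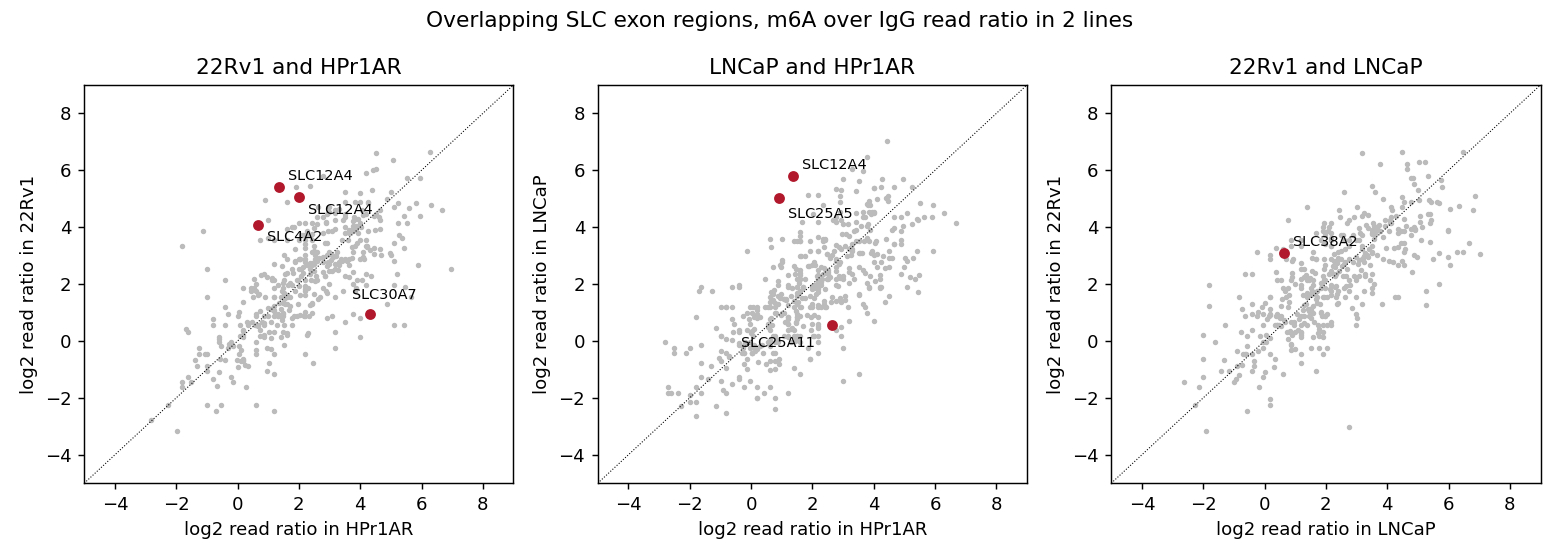
Log2 read ratio of m6A over IgG in overlapping SLC exon regions of 22Rv1 and HPr1AR, LNCaP and HPr1AR, and 22Rv1 and LNCaP, with the first line of each pair on the y axis and the other on the x axis; red points with names passed the test of the difference and the dotted line marks equal ratios. Pairs with at most 3 reads in both pull-downs of a line have no ratio and are not drawn, a pull-down at 0 reads takes the floor of 3, and rho is 0.705, 0.733 and 0.747 over the SLC pairs and 0.747, 0.743 and 0.769 over all exon pairs, with 4, 3 and 1 named points.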

How the data were processed

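m6A and unspecific IgG pull-downs of total RNA were sequenced in 17 samples of 6 groups, and the labels call each group a biological triplicate, although 22Rv1 has 2 m6A samples. The table names among the labels do not follow the lines in the titles, so each table was assigned to the line that its own name gives. The authors deposited 1 table of regions per line that pools the samples. It holds a p-value and adjusted p-value and the log2 fold of the region's representative window, per the file headers. The overlap text and the region positions are other columns of the deposited tables. No aligner, counter or test is named in those sources, while the submitters' processing notes name hg38.

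From each table the 2 depths and prior counts behind fold and p-value were fitted, and whole reads of the representative window were rebuilt, with smallest possible reads where the p-value was 0 or no pair met it. A two-sided exact binomial test per region was adjusted by Benjamini-Hochberg over all regions of a line at 0.05, with 95% Clopper-Pearson intervals. Differences between lines used Fisher's exact conditional test over all overlapping exon pairs with rebuilt reads. RefSeq start windows were matched by symbol, and none of chromosome 8 is printed. No ratio was given where both pull-downs had at most 3 reads. Intervals cover counting error only. The procedure was tested on simulated data.

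Genes were named by rules: the 6 smallest adjusted p-values per line, the 10 smallest over all 3 lines, all lower or differing regions, the 4 with most m6A reads listed in 1 line, and a list of well-known carriers. Some genes that these rules name are not reported here, and counts over the SLC list include them. The members and lists were chosen with earlier results of these data known. Alternatives were the deposited adjusted p, thresholds of 0.01 and 0.001, centring on all exon regions, exons without promoter, neighbours within 5000 bp, 50% reciprocal overlap, uniquely rebuilt reads, regions without bounds and regions without another exon. Python 3.11.15, numpy 2.4.6, pandas 2.3.3, scipy 1.17.1 and matplotlib 3.10.9 were used.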

Additional observations from a re-analysis of the deposited data

Results flagged for a closer look

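The difference in log2 read ratio between lines is given for 6 of the SLC genes with an overlapping region where it passed its own exact test. Between 22Rv1 and HPr1AR it was at least 3.43 at SLC4A2, 4.05 and 3.04 at neighbouring SLC12A4 regions, and at most -3.34 at SLC30A7. Between LNCaP and HPr1AR it was 4.43 at SLC12A4, 4.13 at SLC25A5 and -2.06 at SLC25A11. Between 22Rv1 and LNCaP it was 2.48 at SLC38A2.

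Regions of SLC genes that overlap no exon are outside the comparisons above and also held m6A reads above IgG. The share higher was 67.9% in 22Rv1, 35.7% in LNCaP and 38.4% in HPr1AR, beside 58.6%, 27.5% and 27.5% of all such regions.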

How the results depend on the processing

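Counts of higher SLC regions moved most with the deposited adjusted p, to 803 in 22Rv1, 955 in LNCaP and 1047 in HPr1AR at both 0.05 and 0.001, and with centring on all exon regions, to 239, 316 and 353. Without promoter overlap LNCaP had 336 and HPr1AR 381. Neighbours within 5000 bp gave 62.8% at the LNCaP 5′ end, below the 67.6% at the 3′ end. Under 50% reciprocal overlap, 47.4% and 49.4% of 22Rv1 regions overlapped HPr1AR and LNCaP, 50.2% and 40.8% of LNCaP regions overlapped HPr1AR and 22Rv1, and 35.9% and 45.7% of HPr1AR regions overlapped 22Rv1 and LNCaP. The lower differences of 22Rv1 from HPr1AR numbered 0 under that overlap and 3 after centring, and those of 22Rv1 from LNCaP 3 after centring. With uniquely rebuilt reads LNCaP had 1 lower difference from HPr1AR, and 22Rv1 had 0 higher ones than LNCaP. Centring turned 9 leading ratios or lower bounds negative. Ratios were -1.0 in 22Rv1 and -0.36 in LNCaP at SLC25A3, -0.052 in 22Rv1 at SLC39A6 and -0.76 in HPr1AR at SLC25A5. The others were at least -0.48 at SLC25A3 and at least -0.40 at SLC2A1 in HPr1AR, and at least -0.51 at SLC7A5 in 22Rv1. In LNCaP they were at least -0.30 at SLC39A6 and at least -0.059 at SLC38A2. A negative lower bound does not give the sign of its ratio. A further 15 named ratios or bounds no longer passed, 2 newly passed and 124 kept direction and side of the threshold. With the region of most reads in place of the leading one, 8 no longer passed and 134 did not change side. The cause was not tested.

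Leaving out single samples was not run, since the tables pool them. No paired analysis was possible because the tables hold no value per sample. Regions with few reads allow no call, and ratios written as bounds have no order.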
